A study of Mus musculus with 4 samples.

Results

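The insulin genes Ins1 and Ins2 and the amylin gene Iapp were followed through every barcode of the 4 count matrices. They were chosen by symbol and are 3 of the 21594 genes in the matrices, and all 3 passed the filter on low counts in the beta-like, alpha-like and delta-like sums that were tested. The cells came from dissociated pancreatic islets of 2-month-old mice. Atf4 mutants (Atf4F/F; Ins1Cre, 2 samples) carried both floxed alleles of the stress-response transcription factor Atf4 and a Cre driver named for the Ins1 locus, and controls (Atf4F/F, 2 samples) carried the same floxed alleles without Cre. Since the driver was present in mutants only, its effect and that of the Atf4 loss cannot be told apart, and this bears on Ins1 most directly. Each sample pooled islets (2 males and 2 females in the design text, 3 to 4 mice in the extraction protocol), and the p-values below measure the spread between pools. Both tdT+ and tdT- cells entered the libraries.

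Insulin is made in pancreatic beta cells as a precursor that is cut into the 2-chain hormone and C-peptide, and it lowers blood glucose. Rodents carry a pair of insulin genes, in which Ins2 is the ancestral gene and Ins1 a retroposed copy that lacks the second intron. Amylin, the product of Iapp, is a peptide stored in the same granules and released with insulin, and in rodents it is also known from delta cells, the somatostatin-producing cells of the islet.

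Ins1 (ENSMUSG00000035804.5) lies on chromosome 19 from 52264297 to 52265476 on the plus strand of GRCm38, the assembly also named mm10, with 2 exons. Ins2 (ENSMUSG00000000215.11) lies on chromosome 7 from 142678656 to 142743381 on the minus strand, and its short transcript with 3 exons covers 142678659 to 142679726. Iapp (ENSMUSG00000041681.2) lies on chromosome 6 from 142298423 to 142303961 on the plus strand, with 3 exons. The coding sequences of Ins1 (327 bases) and Ins2 (333 bases, stop codons included) were identical at 90.7% of aligned positions, with 25 mismatches and 6 gap positions, and 7 of 278 windows of 50 bases in Ins1 occurred unchanged in Ins2. The untranslated parts of the transcripts were not compared. How the authors' counting treated reads that fit both genes is not given in the sources used here. Every split between Ins1 and Ins2 is therefore uncertain by an amount that was not measured. The last 113 coding bases, from GENCODE vM21 transcripts, are shown because they carry the longest runs in which the genes cannot be told apart. Capitals mark the 7 positions that differ, counted from 1 at the 5′ end of the stretch as C2A, G5T, G23A, T24C, G37A, G56A and A113G (Ins1 base first). The Ins1 stretch is chr19:52264838-52264950 on the plus strand and the Ins2 stretch is chr7:142678713-142678825 on the minus strand, each within 1 coding exon.
Ins1: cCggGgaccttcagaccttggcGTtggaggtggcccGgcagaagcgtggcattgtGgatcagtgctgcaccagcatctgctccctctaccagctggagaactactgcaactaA
Ins2: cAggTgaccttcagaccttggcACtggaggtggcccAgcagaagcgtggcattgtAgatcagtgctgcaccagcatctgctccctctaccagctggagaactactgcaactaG

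The promoters of Ins1 and Iapp are shown because the levels of these genes varied together across cell classes, as described at the end. They are the 250 bases before the RefSeq start in the table for GRCm38.p6, at chr19:52264047-52264296 and chr6:142298175-142298424 on the plus strand, with Ins1 and Iapp found in that table and Ins2 named only. Capitals mark matches on either strand to GCCATCTG, an E box of the insulin genes bound by the Neurod1 class of factors, and to TAAT, the core bound by Pdx1 and other homeobox factors. GCCATCTG occurred once in the Ins1 window and not in the Iapp window, and it is held by 1.11% of 32851 promoter windows of the same length. TAAT had 3 matches in Ins1 and 5 in Iapp, of which 2 overlap, and it is held by 54.9% of windows. TGATGNAA, a composite element to which Atf4 binds with C/EBP partners, had no match in either window and is held by 3.45% of all windows. A match is a description of these letters and no evidence of binding. Bases outside these windows, including those after the RefSeq start, were not searched.
Ins1: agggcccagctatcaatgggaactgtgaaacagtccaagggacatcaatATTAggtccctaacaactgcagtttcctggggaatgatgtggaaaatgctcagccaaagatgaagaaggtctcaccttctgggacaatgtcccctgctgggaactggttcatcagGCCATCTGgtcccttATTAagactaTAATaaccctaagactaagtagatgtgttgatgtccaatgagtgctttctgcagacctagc
Iapp: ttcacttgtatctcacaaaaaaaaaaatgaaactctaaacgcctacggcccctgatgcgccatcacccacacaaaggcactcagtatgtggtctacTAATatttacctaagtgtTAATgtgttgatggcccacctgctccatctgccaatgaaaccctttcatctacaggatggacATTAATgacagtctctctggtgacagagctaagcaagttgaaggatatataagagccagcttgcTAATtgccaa

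The matrices held 11114 barcodes, each with at least 100 genes, and between 13706563 and 17655893 counts of unique molecular identifiers (UMIs) per sample. Of these barcodes, 4114 had fewer than 500 genes and are described below as low-gene barcodes. Clustering without Ins1, Ins2 and Iapp gave 6967 cells in 16 clusters, named from other marker genes, with 639 and 660 beta-like cells in mutants 1 and 2 and 1049 and 841 in controls 1 and 2. Alpha-like (glucagon-producing), delta-like and PP-like (pancreatic polypeptide-producing) cells numbered 809, 803 and 129, and 1479 cells stayed unnamed. Most beta-like clusters stood apart by library before any result on these genes. Cluster 3 did not, with 117 and 79 cells from mutants 1 and 2 and 152 and 155 from controls 1 and 2. Cluster 6 had 564 of its 604 cells from control 1, cluster 8 had 609 of 649 from control 2, cluster 5 had 165 of 180 from mutant 2, and cluster 1, of 873 cells, had 503 from mutant 1 and 354 from mutant 2. Cluster 1 was led by Cdkn1a, Ccng1 and Phlda3, targets of the stress factor p53, and clusters 8 and 15 had Atf5 and Nupr1, stress response genes, among their leading genes. The part of these differences in the results below was not tested. Of 10731 distinct barcode sequences, 375 occurred in more than 1 sample. The targeted gene Atf4 stood at 3.02 and 113 CPM (counts per 1000000 counts of the scaled library) in the beta-like cells of mutants 1 and 2 and at 370 and 391 CPM in controls 1 and 2, so mutant 2 kept Atf4 RNA at a level between mutant 1 and the controls (log2 change −2.72, SE 0.992, edgeR adjusted p = 0.253).

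Insulin RNA made up 29.2% of all UMIs, and the counts of these genes came close to a limit. Ins2 held 18.3% of all UMIs in the series, Ins1 10.9% and Iapp 4.65%. The highest counts per barcode of both insulin genes approached the number of sequences that a UMI of 6 bases allows, although the UMI length itself is not given in the sources used here. The highest Ins2 counts were 4089 and 4093 in mutants 1 and 2 and 4078 and 4079 in controls 1 and 2, and the highest Ins1 counts ran from 3793 to 3998. Iapp reached 2761 to 3236. More than 50% of the possible sequences were used by Ins2 in 54.6% to 71.1% of beta-like cells, by Ins1 in 24.6% to 41.7% and by Iapp in 2.12% to 4.76%. Counts were therefore corrected per cell and gene for molecules that share a sequence. The correction turns 500 distinct UMIs into 533 molecules, 2000 into 2744 and 4000 into 15374. Summed over beta-like cells it raised Ins2 between 1.95 and 2.30 times, Ins1 between 1.44 and 1.70 times and Iapp between 1.17 and 1.22 times, so counts as deposited understated Ins2 the most. The correction takes every sequence as equally likely and every molecule as equally well read, and neither was tested.

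The ratio of the 2 insulin genes moved with depth within every sample, and less so after the correction. As deposited, the Ins1 share of insulin counts (Ins1 over Ins1 plus Ins2) was higher in the deepest than in the shallowest beta-like cells of all 4 samples. In control 1 it went from 31.9% in cells under 2000 UMIs to 44.3% over 16000 UMIs, and in mutant 1 from 22.5% to 38.7%. After correction the same bins ran from 31.2% to 35.2% in control 1 and from 21.5% to 25.3% in mutant 1. The span over bins fell from between 12.1 and 16.2 percentage points to between 3.75 and 5.23 points, and the deepest cells still had the highest share in every sample. The shares below are corrected unless stated otherwise.

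**Figure D1:**
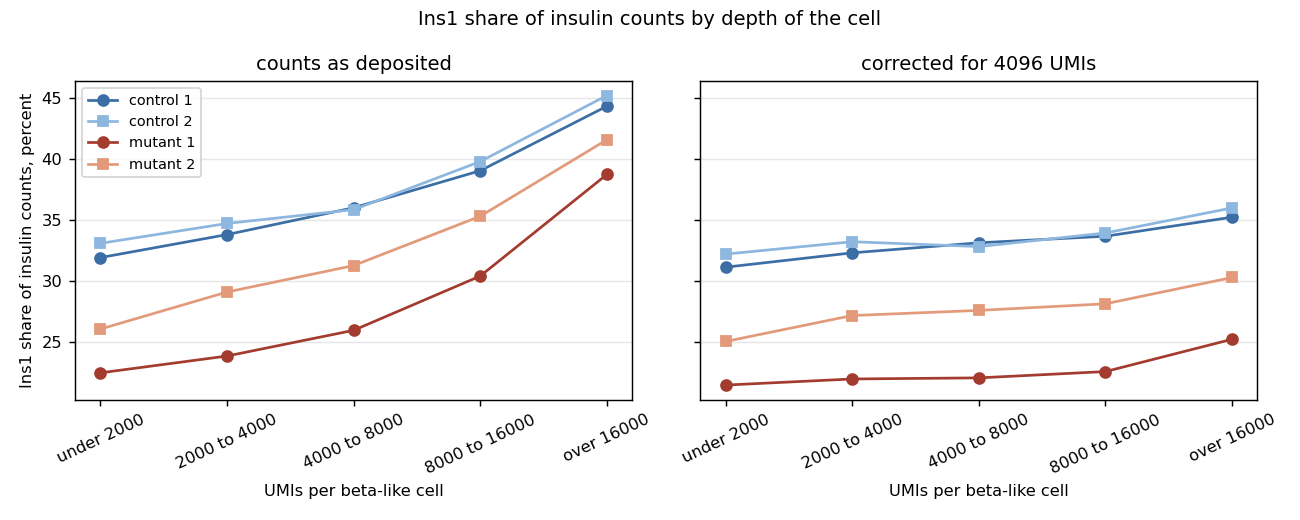
Ins1 share of insulin counts (percent, y axis) in beta-like cells grouped by UMIs per cell (x axis), as deposited on the left and corrected on the right, with 1 line per sample and at least 20 cells per point. The lines climb steeply on the left, by 12.1 to 16.2 points, and by 3.75 to 5.23 points on the right, and both mutants lie below both controls in every bin.

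In beta-like cells Ins1 stood lower in both mutants, Ins2 and Iapp differed less, and none of the 3 genes passed the test. Ins1 stood at 93663 and 121751 CPM in mutants 1 and 2 and at 150208 and 139481 CPM in controls 1 and 2. Both mutants lay below both controls, with mutant 2 nearer to them. The log2 change of Ins1 was −0.43 ± 0.113 (SE, n = 2 per group), with an unadjusted p of 0.00460 and an adjusted p of 0.140 by edgeR's quasi-likelihood test with Benjamini-Hochberg adjustment over 13290 genes. Ins2 stood at 181856 and 203534 CPM in the mutants, against 225511 and 195860 CPM in the controls. These groups overlapped (log2 change −0.13 ± 0.0855, edgeR adjusted p = 0.527). Iapp stood at 48883 and 54478 CPM in the mutants, against 59858 and 59287 CPM in the controls, without overlap (log2 change −0.21 ± 0.0778, edgeR adjusted p = 0.273). Of all genes tested, 0.647% were called in this comparison (0.467% higher and 0.181% lower in mutants). Both mutants lay below both controls in 23.2% of them, as they did for Ins1 and Iapp, and above both controls in 23.7%. At an unadjusted p under 0.05 edgeR had 2 of the 3 genes and 14.7% of all genes, and DESeq2 and limma-voom also called 0 after adjustment.

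Whether Ins1 passed depended on the setting and on which libraries were kept. It passed in 6 of 21 other settings. Among these, 276 of 20798 genes passed with no filter on low counts. With the replicate block 437 of 13290 passed, and with the library name block 837 of 13290, against 86 of 13290 in the main fit. The other passes were in fits that leave out a sample. Over all 21 settings the adjusted p (edgeR, DESeq2 or limma-voom) ran from 0.000113 to 0.256 and the log2 change of Ins1 from −0.65 to −0.25. Without mutant 2, the mutant that kept Atf4 RNA, it was −0.65 (edgeR adjusted p = 0.00421), and without mutant 1 it was −0.25 (0.201). Without control 1 it was −0.37 (0.0304), and without control 2 it was −0.48 (0.000361); these fits have 1 sample in a group and assume that it varies like the others. Correction for UMI collisions moved Ins1 to −0.54 (edgeR adjusted p = 0.108) and Ins2 to −0.01 (0.946). Scaling by library totals alone shifted the median log2 change over all genes from 0.01 to 0.12, and under it Ins1 stood at −0.32 and Ins2 at −0.01.

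As a percent of all corrected UMIs in beta-like cells, Ins1 made up 11.03% in mutant 1, 14.2% in mutant 2, 16.7% in control 1 and 17.4% in control 2. Ins2 made up 34.4% and 34.3% in mutants 1 and 2, against 31.9% and 32.2% in controls 1 and 2, with both mutants above both controls, whereas the scaled counts above put its log2 change below 0. The direction for Ins2 thus flipped with the correction and scaling. Iapp made up 4.79% and 4.92% in the mutants, against 5.09% and 5.33% in the controls. Both insulin genes together made up 45.4% and 48.5% in the mutants, against 48.5% and 49.7% in the controls.

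Ins1 made up a smaller share of insulin RNA in both mutants than in both controls. The Ins1 share was 24.3% in mutant 1, 29.3% in mutant 2, 34.3% in control 1 and 35.1% in control 2. Mutant 2 thus lay about as far from mutant 1 as from control 1. Group means were 26.8% ± 3.56 in mutants and 34.7% ± 0.545 in controls (SD, n = 2 each), a difference of −7.89 percentage points. The exact 2-sided permutation test of the 4 samples gave p = 0.333, the smallest that 2 against 2 can give, so this design cannot pass 0.05. Per Ins2 molecule there were 0.321 and 0.415 Ins1 molecules in the mutants, against 0.523 and 0.541 in the controls. The groups did not overlap under any of the 9 other ways of computing the share, which gave −8.79 to −5.07 points. The smallest difference came from counts as deposited. Counting error was small beside this, since the widest 95% Wilson interval of a beta-like share as deposited was ± 0.0581 points, and such intervals cover counting error only.

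The proportion of amylin to insulin RNA depended on how it was computed. There were 10.5 and 10.1 Iapp molecules per 100 insulin molecules in mutants 1 and 2 and 10.5 and 10.7 in controls 1 and 2. These groups overlapped, and the difference of −0.28 had an exact permutation p of 0.667. In 5 of 9 other ways of computing it both mutants lay below both controls. The difference was then −1.82 with counts as deposited from cells in which each insulin gene used under 25% of the possible UMI sequences, and between −0.55 and −0.33 in the other 4. As deposited the counts of all beta-like cells gave 0.44 in place of −0.28, with 17.7 and 16.7 in the mutants, against 15.9 and 17.7 in the controls. With 2 samples a group this does not show that the proportion is alike.

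Among single beta-like cells with more than 8000 UMIs, the Ins1 share formed 1 peak in 3 samples and a wide distribution in mutant 2. The median share per cell was 23.6% in mutant 1, 27.8% in mutant 2, 34.1% in control 1 and 34.8% in control 2. The SD over cells was 6.30 points in mutant 2 and between 3.25 and 3.82 points in the other 3 samples. Cells with a share below 30% were 96.5% of mutant 1, 58.4% of mutant 2, 13.4% of control 1 and 10.6% of control 2. No cell of this depth lacked Ins1 or Iapp, and the lowest Ins1 count in any of them was 153.

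The wide distribution in mutant 2 followed the Atf4 count of the cell. In mutant 2 the 228 such cells with no Atf4 count had an Ins1 share of 25.2%, the 83 cells with 1 or 2 counts 30.7% and the 126 cells with 3 or more counts 35.1%. The first value lies near the 24.5% of mutant 1 cells with no Atf4 count, and the last near the 34.8% of control 1 cells and the 35.4% of control 2 cells with 3 or more. Depth differed between these cells, with median UMIs of 15274, 12441 and 18436. Within 12000 to 20000 UMIs the shares were 24.2%, 31.8% and 34.0%. From the first to the last of these 3 sets of mutant 2 cells, Ins1 went from 11.8% to 17.4% of corrected UMIs, Ins2 from 34.9% to 32.2% and Iapp from 5.14% to 4.82%. These are cells of 1 pool and not replicates, and the sets were chosen with earlier results known, so no test is given. The 3 sets also differed in the sex of their cells, and within cells of 1 sex Iapp went the other way, as given below. Whether the Cre driver was alike in the 3 sets was not tested. Its effect and that of the Atf4 loss cannot be told apart here either.

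**Figure D2:**
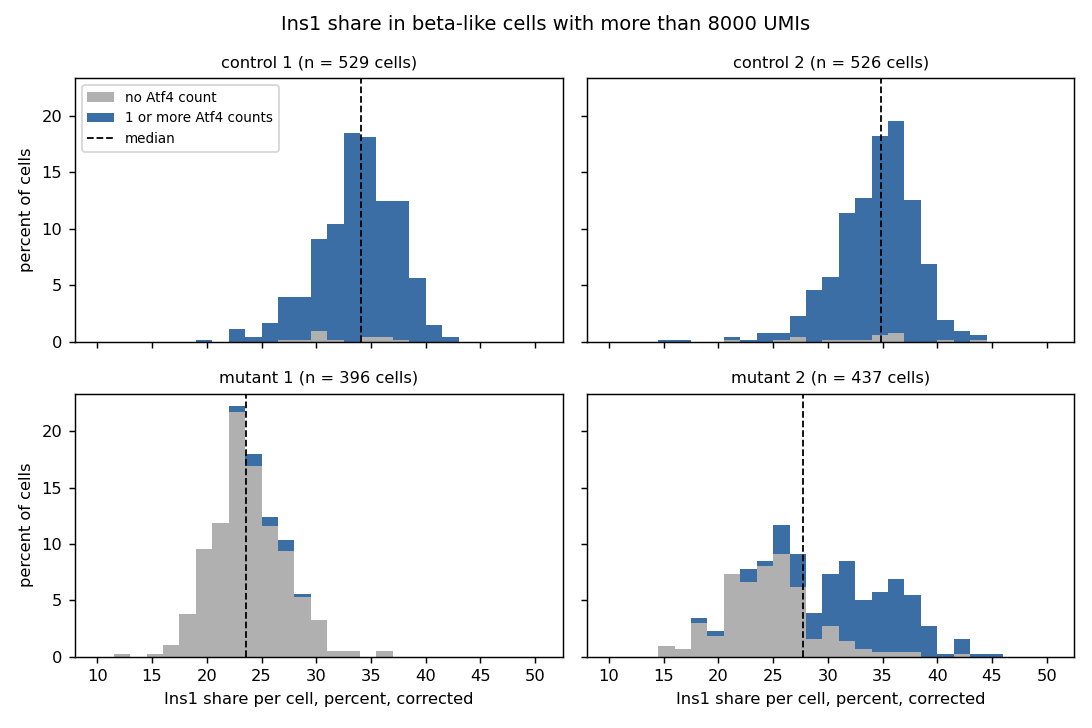
Ins1 share per cell (percent, corrected, x axis) in beta-like cells with more than 8000 UMIs, as a percent of the cells of each sample (y axis), stacked by whether the cell had an Atf4 count, with the median as a dashed line. The controls and mutant 1 each have 1 peak, with medians of 34.1%, 34.8% and 23.6%, and in mutant 2 the cells without Atf4 counts lie to the left of those with counts.

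The sex of the cells moved with the same measure. Among deep beta-like cells of all 4 samples, those with counts of Y-linked genes but none of Xist had a higher Ins1 share than those with Xist counts only. The values were 26.1% against 23.1% in mutant 1, 35.8% against 32.9% in control 1 and 36.3% against 34.3% in control 2. In mutant 2 they were 32.6% against 24.6%, and there Atf4 stood at 182 CPM in the Y-linked cells and at 8.65 CPM in the Xist cells. Within the Y-linked cells of mutant 2 the share was 26.8% with no Atf4 count (66 cells) and 35.5% with 3 or more (106 cells). From the former to the latter, Ins1 went from 13.3% to 17.9% of corrected UMIs and Ins2 from 36.4% to 32.5%. Iapp went from 4.36% to 4.75%, opposite to its direction over all deep beta-like cells of mutant 2. Iapp per 100 insulin molecules was lower in the Y-linked cells of every sample, with differences from −0.21 in control 2 to −3.21 in mutant 2. Which part sex, Atf4, the Cre driver and the animals of the pool have in these values was not tested.

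Outside beta-like cells, most alpha-like, PP-like and delta-like cluster 10 cells held few insulin counts, and the other classes held wide ranges. The median beta-like barcode held 4011 insulin UMIs. The median alpha-like cell held 32 (25th to 75th percentile 18 to 56), the median PP-like cell 34 and the median cell of delta-like cluster 10 held 32, although their median depths were between 3597 and 3852 UMIs. No alpha-like cell had 0 insulin counts. At most 200 insulin UMIs were counted in 93.1% of alpha-like and 87.6% of PP-like cells. In endothelial-like cells (blood vessel lining) 39.4% were at or under that number, and in macrophage-like cells 59.2%, and the 75th percentiles of these classes were 2265 and 1675 insulin UMIs. Delta-like cells split by cluster, with 91.8% at or under 200 in cluster 10 and 4.11% in cluster 7, where the median was 2996 insulin UMIs and the median depth 10792. The clusters were made without these genes. Only 28 of 6995 cells were removed as doublets, and their part in the cells with many insulin counts was not tested.

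**Figure D3:**
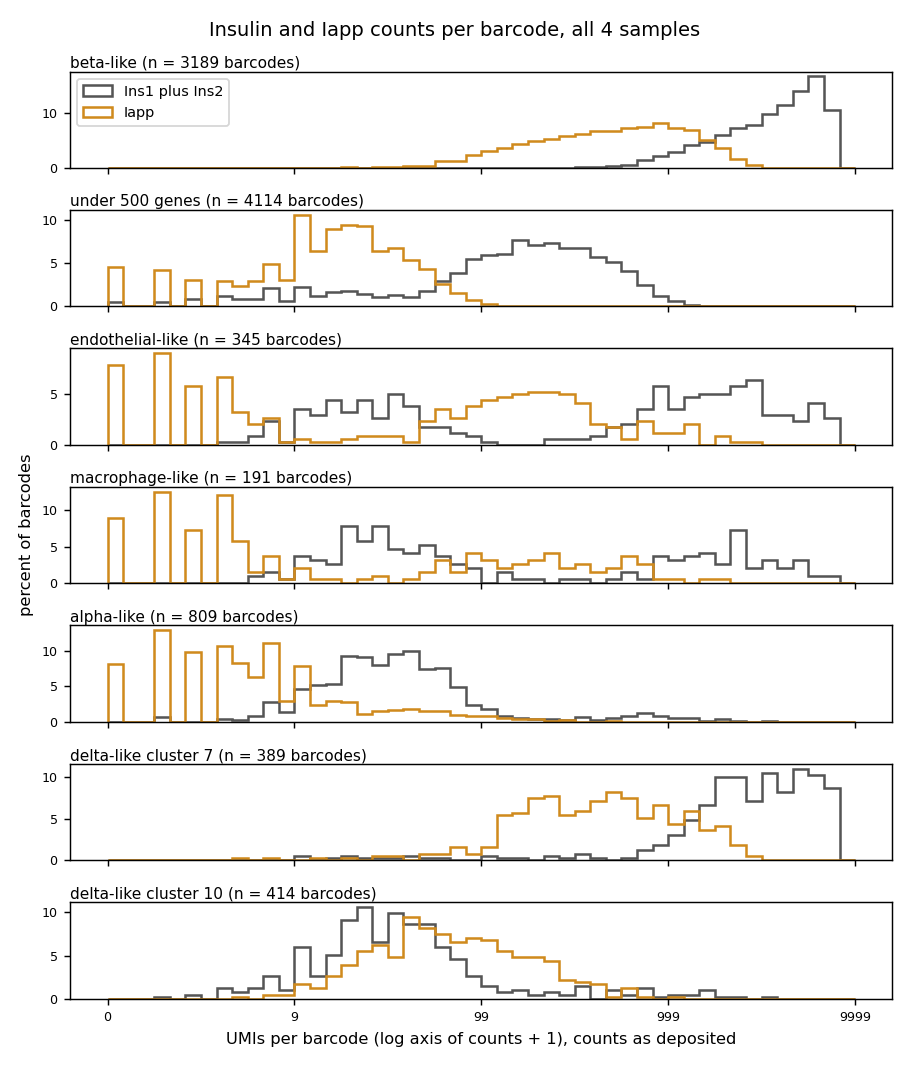
Insulin (Ins1 plus Ins2) and Iapp UMIs per barcode (x axis, log scale of counts + 1) as a percent of barcodes (y axis) in 7 sets of barcodes, all samples together. Endothelial-like and macrophage-like barcodes spread widely, with 25th percentiles of 31 and 25 and 75th percentiles of 2265 and 1675 insulin UMIs, alpha-like barcodes lie mostly at a median of 32 insulin UMIs, and in delta-like cluster 10 the Iapp counts lie to the right of the insulin counts.

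Low-gene barcodes held more insulin UMIs than alpha-like cells. Barcodes under 500 genes had a median of 428 UMIs in all and of 165 insulin UMIs, and those under 200 genes had 288 and 118. Insulin made up 35.2% of the UMIs of barcodes under 500 genes in mutant 1, 41.0% in mutant 2, 44.5% in control 1 and 43.6% in control 2. In alpha-like cells, with a median of 3819 UMIs, it made up 1.33% to 1.93%. The number of insulin UMIs in low-gene barcodes is thus above that in alpha-like cells, in which it was between 0.522% and 1.09% of the beta-like median of the same sample. Whether low-gene barcodes hold free RNA, cell fragments or beta cells read to a low depth was not tested.

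**Figure D4:**
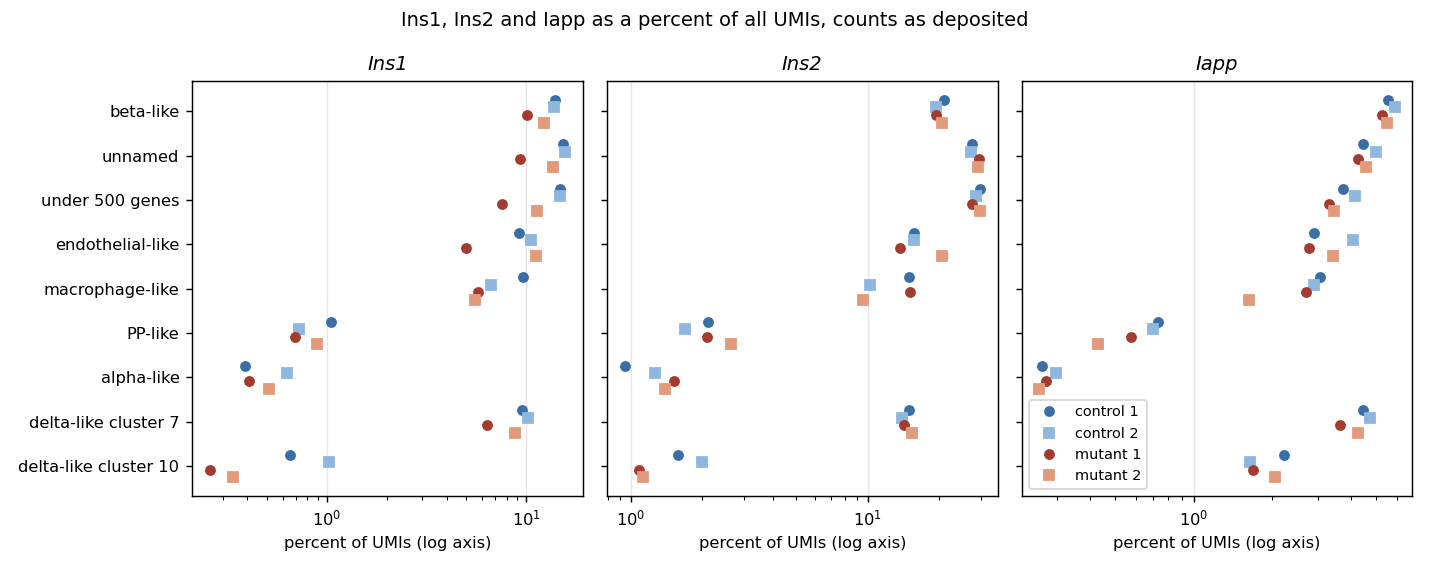
Percent of all UMIs (log axis, counts as deposited) taken by each gene in 9 sets of barcodes (y axis), with 1 point per sample. All 3 genes are high in beta-like, unnamed and low-gene barcodes, insulin is low in alpha-like, PP-like and delta-like cluster 10 cells, and Iapp in delta-like cluster 10 stays between 1.65% and 2.22%.

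The Ins1 share was lower in the mutants in the other barcodes too. In low-gene barcodes the share was 21.1% in mutant 1, 27.0% in mutant 2, 32.9% in control 1 and 33.7% in control 2. In alpha-like cells it was 19.6% and 25.7% in the mutants, against 28.9% and 32.7% in the controls. Both mutants lay below both controls in all 8 sets compared (6 classes, the unnamed cells and the low-gene barcodes). The mean differences ran from −9.25 to −7.09 points, each with an exact p of 0.333, and since the sets of a sample share its library they are not independent. The alpha-like share was below the beta-like share of the same sample in 4 of 4 samples, with a mean difference of −4.02 points. The mean difference was −4.78 points for PP-like cells, −2.09 points for low-gene barcodes and −1.33 points for unnamed cells, each lower in 4 of 4 samples. The exact 2-sided sign-flip test gave 0.125 for each, the smallest 4 samples can give, and 0.219 after adjustment over the 7 sets compared with beta-like cells. Delta-like, endothelial-like and macrophage-like shares lay on both sides of the beta-like share (2 of 4 samples lower in each). In the barcodes with less insulin of each class, the mean difference went from −0.40 to −4.75 points in delta-like cells (3 of 4 samples lower). It went from −0.45 to −2.94 in endothelial-like cells (2 of 4) and from 0.64 to −4.04 in macrophage-like cells (4 of 4). These barcodes were still compared with all beta-like cells of the sample, not with the beta-like cells with less insulin. Depth also differed between these sets. Beta-like cells under 2000 UMIs had shares of 21.5% and 25.1% in the mutants, against 31.2% and 32.2% in the controls. Those of 2000 to 4000 UMIs had 22.0% and 27.2% in the mutants, against 32.3% and 33.2% in the controls. That range holds the pooled alpha-like and PP-like median depths, and the shares of both classes were below these values in every sample. The part of depth in the differences was not tested.

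**Figure D5:**
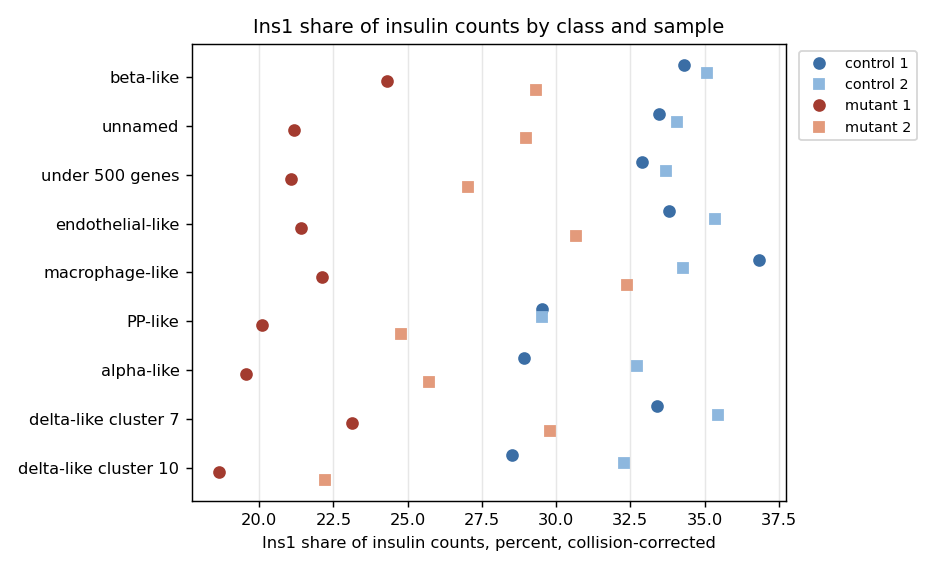
Ins1 share of insulin counts (percent, corrected, x axis) in 9 sets of barcodes (y axis), with 1 point per sample. Mutant 1 is lowest in every set, mutant 2 is next, and the controls are highest, as in beta-like cells, where the 4 values are 24.3%, 29.3%, 34.3% and 35.1%.

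The levels in alpha-like and delta-like cells did not pass the test. In alpha-like cells Ins1 stood at 4013 and 5145 CPM in mutants 1 and 2 and at 3983 and 6255 CPM in controls 1 and 2, with overlap (log2 change −0.16 ± 0.177, edgeR adjusted p = 0.841). Ins2 stood at 15000 and 14117 CPM in the mutants, against 9639 and 12534 CPM in the controls, without overlap (log2 change 0.39 ± 0.129, edgeR adjusted p = 0.376). Without control 2, a fit with 1 sample in a group, the change of Ins2 was 0.60. Iapp stood between 2582 and 2925 CPM in all 4 samples (log2 change −0.10 ± 0.121, edgeR adjusted p = 0.862). Of the genes tested in alpha-like cells, 0.122% were called (0.0221% higher and 0.0996% lower), both mutants lay above both controls in 19.6%, and below both in 19.2%. The difference between the mutant effect in beta-like and in alpha-like cells was −0.31 for Ins1 (edgeR adjusted p = 0.713), −0.54 for Ins2 (0.106) and −0.12 for Iapp (0.849), where 0.204% of genes were called. In the 753 alpha-like cells with at most 200 insulin UMIs, Ins1 stood at 1180 and 1283 CPM in the mutants, against 2817 and 2358 CPM in the controls, and Ins2 at 4837 and 4076 CPM against 6643 and 5674 CPM. That set held 91.0% and 91.3% of the alpha-like cells of mutants 1 and 2 and 96.4% and 94.0% of those of controls 1 and 2. In it both mutants lay below both controls for Ins2, the opposite of the order in all alpha-like cells. The direction of Ins2 in the fits above thus depended on the few alpha-like cells with more insulin UMIs. The set with at most 200 was chosen after the values were seen and by the counts themselves, and it has no test.

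In delta-like cells of both clusters, Ins1 stood at 42688 and 66219 CPM in the mutants, against 75282 and 71744 CPM in the controls (log2 change −0.43 ± 0.141, edgeR adjusted p = 0.372). Without mutant 2 it was −0.79, without control 1 −0.40, without control 2 −0.47, and without mutant 1 −0.15, each in a fit with 1 sample in a group. The log2 change of Ins2 was −0.04 ± 0.109 (edgeR adjusted p = 0.958) and that of Iapp −0.23 ± 0.115 (0.600), which without mutant 2 was −0.43. Both mutants lay below both controls for Ins1, as they did for 19.5% of the genes tested, with the opposite order in 19.9%. Of these genes 0.217% were called (0.123% higher and 0.0944% lower). The insulin-rich cluster 7 held most of the Ins1 UMIs behind these fits. It had 68415 of 69695 in mutant 1 and 189539 of 192106 in mutant 2. In control 1 it had 127474 of 130609, and in control 2 113943 of 119417. The Ins1 results above thus describe mainly cluster 7. By cluster and with no test, Ins1 as deposited made up 0.259% and 0.338% of UMIs in cluster 10 of mutants 1 and 2 and 0.657% and 1.03% in controls 1 and 2. PP-like cells were not tested, since control 2 had 11 of them.

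Iapp departed from the insulin genes in delta-like cluster 10. In delta-like cluster 10 it made up 1.68% and 2.06% of UMIs in mutants 1 and 2 and 2.22% and 1.65% in controls 1 and 2, and a median cell held 63 Iapp UMIs. Median alpha-like and PP-like cells, of like depth, held 4 and 6. Per 100 insulin molecules, cluster 10 had 122 and 137 Iapp molecules in the mutants, against 95.8 and 48.9 in the controls. The few insulin-rich cells of the cluster lowered these values, since in its 380 cells with at most 200 insulin UMIs, a set chosen by these counts, there were 237 and 450 in mutants 1 and 2 and 213 and 192 in controls 1 and 2. The beta-like value was between 10.1 and 10.7 and the low-gene value between 8.14 and 9.25, so cluster 10 did not hold these genes in the ratio found in either. In all alpha-like cells the value was between 12.7 and 19.5. In those with at most 200 insulin UMIs it was between 23.4 and 27.4. Under the same limit it was between 19.6 and 59.0 in PP-like and between 17.7 and 97.0 in macrophage-like cells. In endothelial-like cells under that limit it was between 8.91 and 22.0. In cluster 10 the groups overlapped in the percent of UMIs. No test is given because that cluster was singled out after its values were seen.

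Over 24 sums of 6 classes in 4 samples, the 3 genes varied with each other and with other genes known from beta cells. Among 2794 genes with at least 50 CPM in beta-like sums, Ins1 was most like Ins2 (Pearson r = 0.986 of log2(CPM + 1)), Iapp (0.977), Ucn3 (0.976), Bace2 (0.954) and Mtm1 (0.952). Ucn3 encodes urocortin 3, a peptide released with insulin that acts on delta cells. Ins2 was most like Ins1, Mtm1 (0.972), Bace2 (0.971), Ucn3 (0.969) and Iapp (0.968). Bace2 encodes a protease of beta cells. Iapp was most like Hadh (0.979), Ucn3 (0.979), Ins1, Pdx1 (0.972) and Ins2. Hadh encodes an enzyme of fatty acid oxidation, and Pdx1 a homeobox factor that acts on the insulin and amylin promoters. These sums share libraries and classes, so the values describe likeness and have no p.

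No tested factor that acts on the insulin genes was called. Of 22 such genes, 18 were tested, 0 were called in either direction by edgeR, DESeq2 or limma-voom, and at an unadjusted p under 0.05 edgeR had 1 higher and 4 lower, where 14.7% of all genes were under it. Mafa, Foxa1, Pax4 and Sox9 did not pass the filter on low counts and have no result. Among the 18 tested, the log2 change was below 0 in 16, with a median of −0.23 against 0.01 over all 13290 genes tested. Mlxipl, a glucose-responsive factor, stood at 103 and 155 CPM in mutants 1 and 2 and at 182 and 178 CPM in controls 1 and 2 (log2 change −0.48, edgeR adjusted p = 0.273). Ldb1, a cofactor of Isl1, had −0.44 (edgeR adjusted p = 0.295), and Glis3, a zinc finger factor of the insulin promoter, had 0.43 (0.332).

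Genes for the folding, processing and storage of proinsulin had log2 changes of both signs. Of 28 symbols, 27 were tested and 0 were called by edgeR or limma-voom, while DESeq2, which called 1.80% of all genes, called 4, Pcsk1, Scg2, Scg5 and Pcsk1n. At an unadjusted p under 0.05 edgeR had 5 higher and 2 lower, against 14.7% of all genes, and the median log2 change was 0.05 against 0.01 over all genes. Pcsk1, the convertase that starts proinsulin cleavage, stood at 253 and 256 CPM in mutants 1 and 2 and at 161 and 173 CPM in controls 1 and 2 (log2 change 0.61, edgeR adjusted p = 0.0627). Pcsk1n, which encodes an inhibitor of that convertase, had −0.51 (edgeR adjusted p = 0.0924). Scg2, a granule protein, had 0.48 (edgeR adjusted p = 0.0706), and Scg5, a chaperone of the second convertase Pcsk2, had −0.59 (0.0796). In these 4 genes, named for their low p, the mutants and controls did not overlap, which held for 46.9% of all genes tested.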

How the data were processed

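Libraries were made by inDrops with 10% human K562 cells added, per the labels' protocols; these could not be called, since the matrices hold mouse genes. The deposited values are UMI counts per gene symbol and barcode, made by the authors. The genome mm10 and Seurat, with no version, are named in the submitters' processing notes. The aligner and the counting rule are not given in the sources used here. Alignment and counting were not repeated.

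Of 11114 barcodes, 6995 had 500 or more genes and a mitochondrial share below 20%, and these were kept. Scrublet at an expected rate of 6% marked 28, or 0.400%, so it cannot be taken to have worked. Cells were scaled and clustered without the 3 genes (scanpy 1.11.5, 2000 variable genes, 30 components, 15 neighbours, Leiden resolution 1). A limit of 0.5% marker counts for a name was set after the clusters were seen. The names are rebuilt, not the authors'. UMI counts k per cell and gene were corrected as −N ln(1 − k/N), with N the number of different sequences of 6 bases. Sums per sample were tested with edgeR 4.0.16 (filterByExpr, TMM, quasi-likelihood F test, adjusted p under 0.05), with DESeq2 1.42.0 and limma 3.58.1 as alternatives, and shares with exact permutation tests. On simulated beta-like sums of 13290 genes, with changed genes drawn at 50 CPM or more, edgeR recovered 93% of genes changed by 1 on the log2 scale and 99% changed by 2, with 15 false calls.

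The members, lists and tests were chosen with earlier results of these data known. Named genes were the 3 members, the 5 genes most like each of them, the 4 lowest-p members of each list, and Atf4; 1 of them is not reported here. The 2 delta-like clusters and the alpha-like cells with at most 200 insulin UMIs were also fitted in exploring the data; those tests are not given, because these sets were chosen after their values were seen.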

Additional observations from a re-analysis of the deposited data

How the results depend on the processing

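The direction of Ins1 in beta-like cells, of the Ins1 share and of Iapp held under every alternative run, except that Iapp per 100 insulin counts turned to 0.44 with counts as deposited. Ins1 passed the test at −0.45 with no filter on low counts, and at −0.44 with the replicate number or the library name prefix as a block. In beta-like cells 86 genes were called (62 higher and 24 lower), against 201 (169 and 32) when library totals alone set the scaling, 276 with no filter, 239 by DESeq2, 437 with the replicate block, 837 with the library name block and 54 with the unnamed cells added, an alternative chosen after seeing the data. The replicate numbers are shared by both groups in the labels. The deviations of same-numbered samples had r = −0.133 over 4263 genes, and the crossed pairing is that of the library names, so the replicate numbers were not taken to pair samples. The block ended or made no other call on the 3 genes.

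Leaving out 1 sample gave −10.4 to −5.37 points for the Ins1 share, −0.48 to −0.07 for Iapp per 100 insulin counts, and 33 to 423 called genes. It gave −0.65 to −0.25 for Ins1, −0.24 to −0.03 for Ins2 and −0.31 to −0.13 for Iapp in beta-like cells. In alpha-like cells it gave −0.45 to 0.20, 0.21 to 0.60 and −0.16 to −0.03, and in delta-like cells −0.79 to −0.15, −0.20 to 0.10 and −0.43 to −0.06. Ins2 in delta-like cells turned to 0.011 with library totals, and Iapp there was −0.062 without mutant 1. The macrophage-like share, 0.64 points above the beta-like one, turned to −2.63 as deposited and to −4.04 in the barcodes with less insulin. In the cases that changed, the cause was not tested. The counts of these genes are limited by the number of UMI sequences, and the tests by 2 samples a group.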
